A study of Mus musculus with 47 samples.

Results

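The 10 genes described here encode cyclic nucleotide phosphodiesterases: Pde10a, Pde1a, Pde1b, Pde1c, Pde2a, Pde4a, Pde4b, Pde4d, Pde7b and Pde8b. They were taken by gene symbol from the gene count table, where the 10 symbols matched 11 of 48795 rows. The additional row is a second Pde2a entry. The table covered 47 libraries of striatum from mice of 6 months on a C57BL background. The 6 groups crossed the Ccdc82 genotype (wild type, Ccdc82+/- or Ccdc82-/-) with the absence or presence of Q140; Q140 alone has wild-type Ccdc82. All held 8 libraries (4 female and 4 male) except Q140 Ccdc82-/-, which held 7 (3 female and 4 male). The labels do not say outright that each library came from its own mouse, so p-values measure the spread between these libraries. Q140 mice are heterozygous for a knock-in allele of Htt with an expanded CAG repeat, a model of Huntington's disease. Ccdc82 encodes a coiled-coil protein, and the labels give its mutant allele only as heterozygous or homozygous. The design asks how Q140 changes gene expression, and whether 1 or 2 mutant Ccdc82 copies alter that change.

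Phosphodiesterases break down cyclic AMP, cyclic GMP or both, and so end signals that adenylyl and guanylyl cyclases begin. In striatum, medium spiny neurons receive dopamine through the receptors Drd1, which raises cyclic AMP, and Drd2, which lowers it, and Pde10a and Pde1b are known as abundant enzymes of these neurons. The Pde1 enzymes are activated by calcium and calmodulin, Pde2a by cyclic GMP itself. Pde10a, Pde1 and Pde2a enzymes act on both nucleotides, whereas the Pde4, Pde7 and Pde8 enzymes act on cyclic AMP.

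Each library held 41.3 to 61.7 M counts (median 47.7 M). Ccdc82 was at 12.01 ± 0.773 CPM (SD, n = 8) in wild type, 8.42 ± 0.519 (SD, n = 8) in Ccdc82+/- and 4.57 ± 0.666 (SD, n = 8) in Ccdc82-/-, so its mRNA followed the labels while 38.0% of the wild-type level remained in the homozygotes. With Q140 it was at 11.6 ± 0.950 (SD, n = 8), 8.61 ± 0.927 (SD, n = 8) and 4.56 ± 0.652 CPM (SD, n = 7) in the same order. Htt was at 217 ± 9.36 CPM in wild type and 199 ± 12.1 in Q140 (SD, n = 8 each), which does not check a knock-in label. CPM stands for counts per M counts after TMM scaling. All 15 markers shared by medium spiny neurons, the principal cells of striatum, were detected in every group. The Ccdc82-/- library male 1 stood apart in markers of choroid plexus, a tissue inside the ventricles of the brain. Their summed level was 340 CPM there, against a group median of 27.7. In wild type the library male 1 was highest, at 70.8 CPM against a median of 33.5. Results that change without either library are given with both values. The plate wells in the labels were uneven over groups: 4 of 8 wild-type libraries and 0 of 8 Q140 libraries were in column 4. The labels do not say whether a column was an extraction or library batch.

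Promoter windows are shown for the 3 members the results turn on. These are Pde10a, with the largest decrease, Pde1b, with the highest level per unit length, and Pde4d, higher with Q140 on all 3 Ccdc82 backgrounds. Each window runs from 250 bases before to 50 bases after an annotated start in RefSeq on GRCm38.p6, 5′ to 3′ on the gene's strand. The table held 31 such windows for the 10 genes, among them 2 for Pde10a, 3 for Pde1b, of which the one at the gene's start is shown, and 1 for Pde4d. The Pde10a and Pde4d windows lie inside the gene spans given below, which begin at 8525372 and 108449948. No window was held at those positions. Upstream and downstream name the 2 Pde10a windows relative to each other. Capitals mark matches to the motifs that were searched on both strands, so GGGCGG on the opposite strand appears as CCGCCC.
Pde10a upstream window, chr17:8801495-8801794, plus strand: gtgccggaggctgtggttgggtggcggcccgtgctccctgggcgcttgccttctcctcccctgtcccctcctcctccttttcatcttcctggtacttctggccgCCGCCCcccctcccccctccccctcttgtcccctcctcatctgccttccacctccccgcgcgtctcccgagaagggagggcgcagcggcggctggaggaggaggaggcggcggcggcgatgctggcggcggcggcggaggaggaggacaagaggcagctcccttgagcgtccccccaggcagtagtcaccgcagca
Pde10a downstream window, chr17:8849735-8850034, plus strand: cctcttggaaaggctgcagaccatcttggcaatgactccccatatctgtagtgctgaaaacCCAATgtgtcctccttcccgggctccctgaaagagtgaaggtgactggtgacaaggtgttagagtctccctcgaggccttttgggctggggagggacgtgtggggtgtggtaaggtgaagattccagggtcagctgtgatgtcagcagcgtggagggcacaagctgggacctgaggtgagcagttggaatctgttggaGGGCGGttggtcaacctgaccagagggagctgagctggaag
Pde1b, chr15:103502784-103503083, plus strand: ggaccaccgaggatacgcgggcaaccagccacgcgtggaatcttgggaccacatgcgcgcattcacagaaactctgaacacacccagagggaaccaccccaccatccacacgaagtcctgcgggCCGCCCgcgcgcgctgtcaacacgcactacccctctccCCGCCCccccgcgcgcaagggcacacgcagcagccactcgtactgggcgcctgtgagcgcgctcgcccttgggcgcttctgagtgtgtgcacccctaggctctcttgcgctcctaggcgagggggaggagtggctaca
Pde4d, chr13:108653927-108654226, plus strand: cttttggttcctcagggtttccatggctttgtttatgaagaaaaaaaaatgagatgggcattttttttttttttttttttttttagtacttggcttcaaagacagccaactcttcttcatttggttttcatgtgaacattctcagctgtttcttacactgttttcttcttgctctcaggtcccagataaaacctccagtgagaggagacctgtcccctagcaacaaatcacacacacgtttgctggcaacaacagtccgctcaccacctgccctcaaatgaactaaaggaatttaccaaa

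The searched motifs were the full cyclic AMP response element TGACGTCA, its shorter form TGACG (contained in the full element), the CCAAT box, the GGGCGG motif of GC boxes, the TATAAA box and the Egr motif GCGTGGGCG. The full cyclic AMP response element was in 0 of the 31 windows, and in 1.79% of the 32817 windows of all genes. TGACG was in 5 of the 31 windows, those of Pde1a, Pde2a, Pde4a, Pde4b and Pde8b, against 20.8% of all windows. GGGCGG was in 8 windows (35.6% of all), CCAAT in 11 (37.4%), TATAAA in 3 (13.6%) and the Egr motif in 0 (0.612%). The upstream Pde10a window held 1 GGGCGG match on the opposite strand at a GC content of 71.3%. The downstream Pde10a window held CCAAT and GGGCGG, and the Pde1b window held GGGCGG at 2 places on the opposite strand. The Pde4d window, which lies inside the gene and not at its start, held none of the 6 motifs, at a GC content of 39.7%. The median GC content over all windows was 52.7%. Gene-level counts do not tell which start was used, and a letter match is not a binding site.

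In wild-type striatum the phosphodiesterase mRNAs spanned more than 2 orders of magnitude per unit length. Levels between genes are compared as FPKM, the authors' length-scaled values. Pde1b was highest at 605 ± 25.3 FPKM (SD, n = 8), followed by Pde10a at 205 ± 15.4 and Pde7b at 51.5 ± 3.31. Pde8b followed at 28.1 ± 1.099 and Pde4b at 16.9 ± 0.882. These 5 did not overlap with their neighbours in any wild-type library. Pde2a at 13.0 ± 0.478 overlapped with Pde6d above it and with Pde4a at 11.5 ± 0.806 below it. Pde1a at 4.22 ± 0.801 and Pde4d at 3.799 ± 0.230 lay among Pde9a and Pde7a with overlapping libraries. Pde1c was lowest of the members at 2.47 ± 0.247 FPKM, below Pde4d without overlap.

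The 25 phosphodiesterase rows of the table summed to 974.5 ± 34.2 FPKM in the wild-type group and 697 ± 34.1 in the Q140 group (SD, n = 8 each). These 25 rows were taken by symbol, without regard to enzyme activity. They include Pde6d, Pde6g, Pde6h and the second Pde2a row. The sums did not overlap: the lowest wild-type library was at 927 and the highest Q140 library at 740.3. Pde1b and Pde10a together took 83.1% ± 0.512 of the wild-type sum and 78.0% ± 0.964 of the Q140 sum (SD, n = 8 each). Without these 2 genes, the sum was 165 ± 2.75 FPKM in wild type and 153 ± 2.64 in Q140 (SD, n = 8 each). The ratio of Pde1b to Pde10a FPKM was 2.97 ± 0.213 in wild type and 3.50 ± 0.114 in Q140 (SD, n = 8 each). The Q140 Ccdc82+/- and Q140 Ccdc82-/- groups summed to 694 ± 12.7 (SD, n = 8) and 695 ± 25.2 FPKM (SD, n = 7), beside 992 ± 25.9 (SD, n = 8) in Ccdc82+/- and 972 ± 23.7 (SD, n = 8) in Ccdc82-/-.

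**Figure D1:**
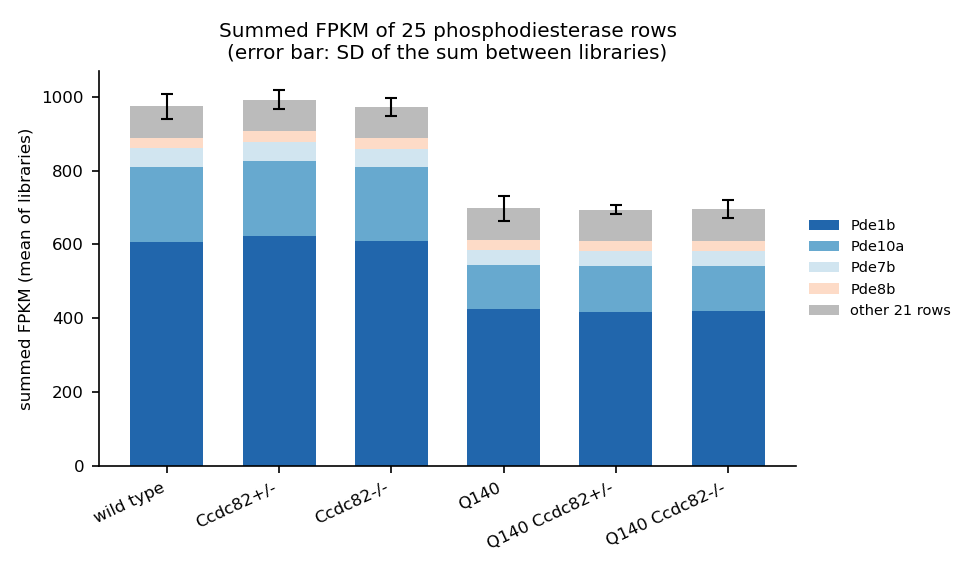
Summed FPKM of the 25 phosphodiesterase rows by genotype group (y axis, mean of libraries), split into Pde1b, Pde10a, Pde7b, Pde8b and the rest; error bars are the SD of the sum between libraries (n = 8, and 7 in Q140 Ccdc82-/-). The 3 groups without Q140 sum to 972 to 992 FPKM and the 3 with Q140 to 694 to 697.

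Most of these mRNAs fell with Q140, led by Pde10a and Pde1b, and Pde4d rose. Against wild type, 8 of the 10 members were lower and 2 were higher by edgeR's quasi-likelihood test at an adjusted p under 0.05, where 34.7% of 19193 genes passed (16.5% lower and 18.2% higher). On Ccdc82+/-, 7 were lower and 1 higher, where 35.0% of genes passed (16.7% lower and 18.4% higher). On Ccdc82-/-, 6 were lower and 2 higher, where 33.2% of genes passed (15.7% lower and 17.5% higher). The members were chosen with earlier results of these data known, so their counts beside these shares are a description and not a test. The median log2 change of the 10 members was -0.21, -0.14 and -0.15 in these comparisons, and that of all genes -0.0005, 0.01 and 0.01. The 3 comparisons share no library, and the fitted sign of each of the 10 members was the same in all of them, as it was for 70.3% of all genes. Of the 10 members called against wild type, 7 were called in the same direction on both other backgrounds, or 70% of them, beside 66.6% of the 6655 genes called. The share of genes called higher depends on the scaling: 3485 genes were higher and 3170 lower against wild type on TMM-scaled counts, and 5907 and 2104 on FPKM, which are scaled to the library total and moved the median of all genes by 0.05. On FPKM 7 members were lower and 2 higher against wild type, 5 and 1 on Ccdc82+/-, and 5 and 2 on Ccdc82-/-. For all genes the split was 3524 higher and 3202 lower on Ccdc82+/- (6509 and 1893 on FPKM), and 3360 and 3007 on Ccdc82-/- (6136 and 1810 on FPKM). Pde8b, Pde10a, Pde7b and Pde4d overlap gene models on the opposite strand, and whether strand was used in counting is not given in the sources used here, so reads from either strand cannot be told apart. The low-count Pde2a row did not pass the filter on low counts and was not tested. Since the tissue was sequenced in bulk, fewer cells of a type and less RNA per cell cannot be told apart.

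**Figure D2:**
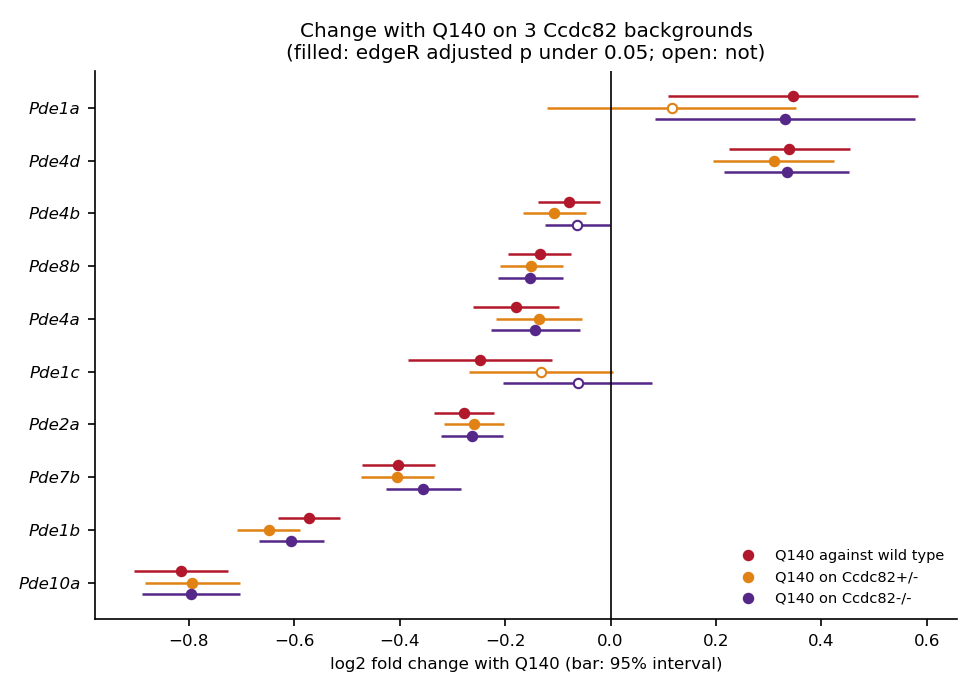
Log2 fold change with Q140 (x axis, with 95% intervals) of the 10 members on 3 Ccdc82 backgrounds; filled points passed edgeR's test at an adjusted p under 0.05. Pde10a lies lowest, at -0.81, -0.79 and -0.80, and Pde4d lies at 0.31 to 0.34 on all 3.

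Pde10a (ENSMUSG00000023868), on chromosome 17 from 8525372 to 8986648 in GRCm38, encodes the dual-substrate enzyme known for its high level in medium spiny neurons. It ranged from 2342 to 2967 CPM in wild type (median 2605), from 2295 to 2794 in Ccdc82+/- (median 2622) and from 2318 to 2756 in Ccdc82-/- (median 2578). With Q140 it ranged from 1308 to 1707 (median 1491), with Q140 Ccdc82+/- from 1396 to 1655 (median 1516) and with Q140 Ccdc82-/- from 1378 to 1601 (median 1492). All 23 libraries with Q140 were below all 24 libraries without it. The log2 fold change was -0.81 ± 0.046 (SE) against wild type (edgeR adjusted p = 4.25e-19), or 56.9% of the control level. It was -0.79 ± 0.046 on Ccdc82+/- (adjusted p = 5.95e-19) and -0.80 ± 0.048 on Ccdc82-/- (adjusted p = 3.11e-18). Over 15 other settings of the analysis, the change against wild type ranged from -0.83 to -0.75 and passed in each.

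Pde1b (ENSMUSG00000022489), on chromosome 15 from 103503034 to 103530052, encodes the calcium and calmodulin activated enzyme whose mRNA was the highest phosphodiesterase here per unit length. In CPM, which are not scaled to length, its wild-type mean of 1825 was below that of Pde10a at 2634. Pde1b libraries ranged from 1711 to 1951 CPM in wild type (median 1829), 1819 to 2008 in Ccdc82+/- (median 1862) and 1743 to 1948 in Ccdc82-/- (median 1836). The Q140 libraries ranged from 1089 to 1304 (median 1253), the Q140 Ccdc82+/- libraries from 1164 to 1262 (median 1195) and the Q140 Ccdc82-/- libraries from 1154 to 1263 (median 1221). No library with Q140 reached the lowest library without it. The log2 fold change was -0.57 ± 0.030 (SE) against wild type, -0.65 ± 0.030 on Ccdc82+/- and -0.61 ± 0.031 on Ccdc82-/-. The edgeR adjusted p-values were 8.95e-21, 8.01e-23 and 4.33e-21. For comparison, the 95% interval against wild type was -0.63 to -0.51 for Pde1b and -0.90 to -0.72 for Pde10a. Their difference was not tested.

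**Figure D3:**
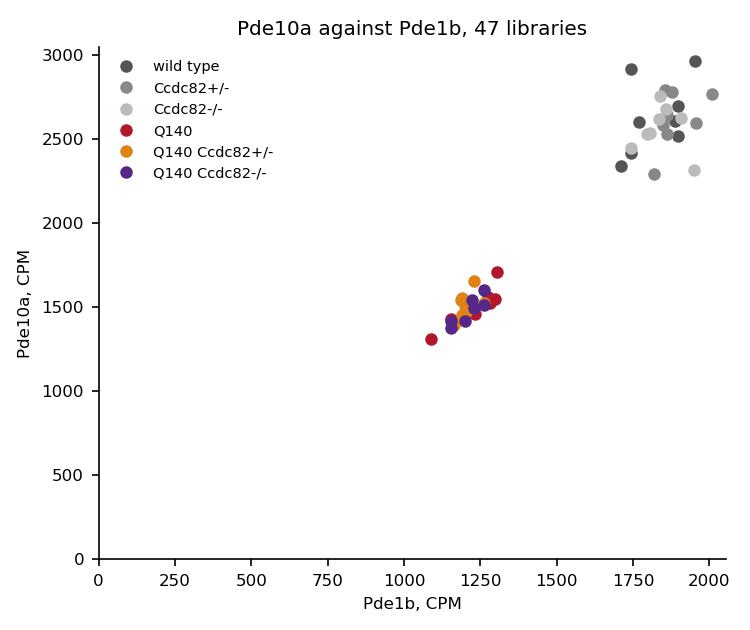
Pde10a against Pde1b, both in CPM, with 1 point per library coloured by genotype. The 24 libraries without Q140 lie at or above 2295 CPM of Pde10a and 1711 of Pde1b, and the 23 libraries with Q140 lie at or below 1707 and 1304.

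Pde7b (ENSMUSG00000019990), on chromosome 10 from 20398004 to 20725078, encodes a cyclic AMP specific enzyme. It ranged from 351 to 424 CPM in wild type (median 382.5) and from 264 to 304 in Q140 (median 290.3). In Ccdc82+/- it ranged from 362.5 to 418 and with Q140 added from 273 to 313; in Ccdc82-/- it ranged from 343 to 402 and with Q140 added from 282 to 305. Again the libraries with and without Q140 did not overlap. Relative to its controls Pde7b was at -0.40 ± 0.035 on the log2 scale (SE) against wild type, -0.41 ± 0.035 on Ccdc82+/- and -0.36 ± 0.037 on Ccdc82-/-, with edgeR adjusted p-values of 2.68e-13, 1.71e-13 and 3.69e-11.

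Pde2a encodes the enzyme stimulated by cyclic GMP. Its main row (ENSMUSG00000110195) lies on chromosome 7 from 101421691 to 101512827 and had a mean of 3606 counts per library. The second row named Pde2a (ENSMUSG00000030653) covers the same locus on the same strand from 101410886 and had 0 to 9 counts. GENCODE M21 names it Gm45837, a protein-coding model that also overlaps Arap1. Reads shared by both models may have been left out, depending on a counting mode that is not given in the sources used here, so the Pde2a level is uncertain. The main row ranged from 76.8 to 88.0 CPM in wild type (median 81.5) and from 61.9 to 71.7 in Q140 (median 67.3). The lowest of the 24 libraries without Q140 was at 76.8 CPM and the highest of the 23 with Q140 at 73.0. Pde2a fell on each background, with log2 fold changes of -0.28 ± 0.029 (SE), -0.26 ± 0.029 and -0.26 ± 0.030 on wild type, Ccdc82+/- and Ccdc82-/-, with edgeR adjusted p-values of 5.26e-11, 2.92e-10 and 7.11e-10.

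Pde10a, Pde1b, Pde7b and Pde2a were thus the 4 members whose CPM ranges lay apart, lower with Q140, on all 3 backgrounds. In each comparison taken alone, ranges lay apart in this direction for 5.07% of genes against wild type, 5.76% on Ccdc82+/- and 5.36% on Ccdc82-/-. The share of all genes apart on all 3 backgrounds at once, or between all libraries with and without Q140, was not counted. In the opposite direction 1 member, Pde4d, had ranges apart against wild type, where 4.70% of genes did, and 0 members on the other backgrounds (4.52% and 4.12% of genes).

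**Figure D4:**
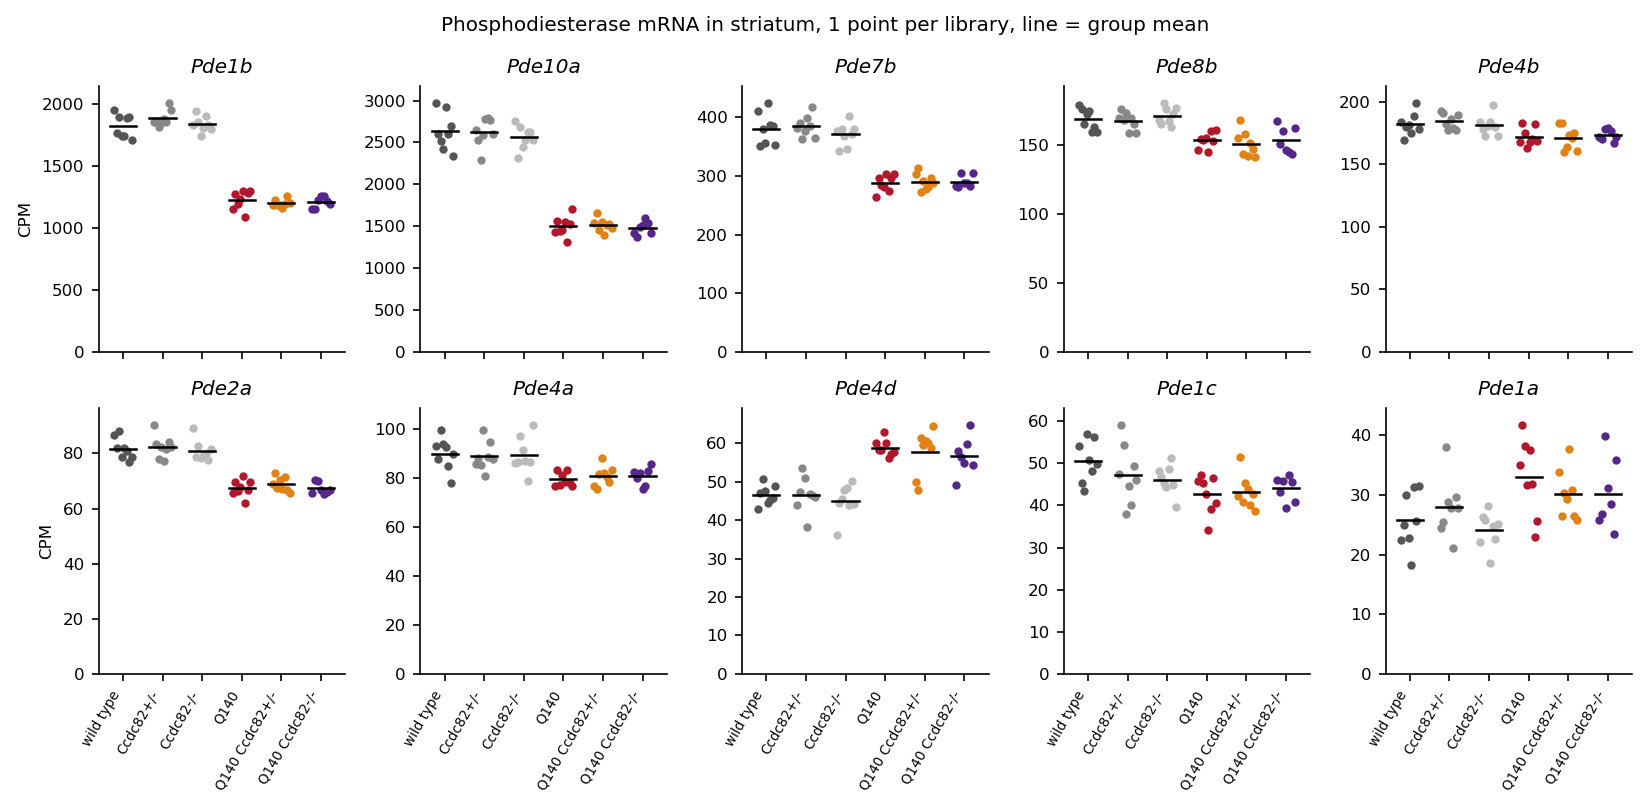
CPM of each member (y axis, from 0) in the 6 genotype groups, with 1 point per library and a line at the group mean. Pde1b, Pde10a, Pde7b and Pde2a separate the 23 libraries with Q140 from the 24 without, Pde4d shifts upward, and the groups of the other 5 overlap. How many of all genes separate these libraries in this way was not counted.

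The Pde4 genes, which encode cyclic AMP specific enzymes, moved in different directions. Pde4d (ENSMUSG00000021699), on chromosome 13 from 108449948 to 109953461, ranged from 42.9 to 50.6 CPM in wild type (median 46.4) and from 56.2 to 63.1 in Q140 (median 58.3), with no overlap. On Ccdc82+/- it ranged from 38.3 to 53.5 without Q140 (median 46.7) and from 47.8 to 64.6 with it (median 59.8). On Ccdc82-/- it ranged from 36.0 to 50.2 (median 44.9) and from 49.2 to 64.7 (median 56.5), so the groups overlapped on both mutant backgrounds. The log2 fold change was 0.34 ± 0.058 (SE), 0.31 ± 0.058 and 0.33 ± 0.060, with edgeR adjusted p-values of 7.89e-06, 3.20e-05 and 1.88e-05. In females alone the value on Ccdc82+/- was 0.16 and did not pass (adjusted p = 0.258).

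Pde4a (ENSMUSG00000032177), on chromosome 9 from 21165714 to 21213248, ranged from 77.8 to 99.7 CPM in wild type (median 91.3) and from 76.8 to 83.2 in Q140 (median 78.2). The ranges overlapped, and the log2 fold change was -0.18 ± 0.042 (SE), -0.14 ± 0.042 and -0.14 ± 0.043 on the 3 backgrounds, with edgeR adjusted p-values of 0.000515, 0.00793 and 0.00785. On the deposited FPKM, which are scaled to the library total, its decrease on Ccdc82+/- and Ccdc82-/- did not pass (limma adjusted p = 0.215 and 0.170 with a pseudocount of 0.1). Pde4a lies 7.87 Mb from Ccdc82 on the same chromosome. It was at 89.3 ± 7.16 CPM (SD, n = 8) in Ccdc82-/- and 89.9 ± 6.62 (SD, n = 8) in wild type.

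Pde4b (ENSMUSG00000028525), on chromosome 4 from 102087543 to 102607259, had the smallest fitted change of the 10 members against wild type. It ranged from 169.5 to 199 CPM in wild type and from 163 to 183 in Q140, a log2 fold change of -0.08 ± 0.030 (SE, edgeR adjusted p = 0.0386). On Ccdc82+/- the change was -0.11 ± 0.030 (adjusted p = 0.00418), and on Ccdc82-/- the value was -0.06 ± 0.031 and did not pass (adjusted p = 0.121). Against wild type it passed in 8 of 15 other settings, and with the plate column as a factor the value was -0.04 (adjusted p = 0.434). On FPKM it was -0.02 (limma adjusted p = 0.624).

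Pde8b (ENSMUSG00000021684), on chromosome 13 from 95024454 to 95250336, encodes a cyclic AMP specific enzyme of high affinity. It ranged from 159 to 179 CPM in wild type (median 169) and from 145 to 161 in Q140 (median 154). The decrease was small, with log2 fold changes of -0.13 ± 0.031 (SE), -0.15 ± 0.031 and -0.15 ± 0.032 and edgeR adjusted p-values of 0.000381, 7.75e-05 and 0.000135. In males alone the change against wild type was -0.08 (adjusted p = 0.168), and in females alone the change on Ccdc82-/- was -0.11 (adjusted p = 0.0806).

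The remaining Pde1 genes went in opposite directions against wild type. Pde1c (ENSMUSG00000004347), on chromosome 6 from 56069804 to 56569103, ranged from 43.5 to 56.9 CPM in wild type (median 50.4) and from 34.1 to 47.1 in Q140 (median 44.0). The log2 fold change was -0.25 ± 0.070 (SE, edgeR adjusted p = 0.00437). With the plate column as a factor it was -0.20 (adjusted p = 0.0665) and in females alone -0.14 (adjusted p = 0.383). On Ccdc82+/- the value was -0.13 ± 0.070 (adjusted p = 0.144) and on Ccdc82-/- -0.06 ± 0.072 (adjusted p = 0.558). Pde1c was at 50.6 ± 4.90 CPM (SD, n = 8) in wild type, 47.3 ± 6.96 (SD, n = 8) in Ccdc82+/- and 46.1 ± 3.51 (SD, n = 8) in Ccdc82-/-, beside 42.7 ± 4.52 in Q140 (SD, n = 8), 43.2 ± 3.97 in Q140 Ccdc82+/- (SD, n = 8) and 44.0 ± 2.99 in Q140 Ccdc82-/- (SD, n = 7). The difference between the backgrounds did not pass: the interaction was 0.18 ± 0.1005 (SE) for Ccdc82-/- (unadjusted p = 0.0728, edgeR adjusted p = 0.998).

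Pde1a (ENSMUSG00000059173), on chromosome 2 from 79834453 to 80129458, ranged widely, from 18.3 to 31.5 CPM in wild type (median 25.3) and from 22.9 to 41.7 in Q140 (median 33.4). The log2 fold change was 0.35 ± 0.121 (SE, edgeR adjusted p = 0.0230) against wild type, 0.12 ± 0.121 on Ccdc82+/- (adjusted p = 0.505) and 0.33 ± 0.126 on Ccdc82-/- (adjusted p = 0.0389). Both calls lay near the threshold, passing in 12 of 15 other settings against wild type and in 7 of 15 on Ccdc82-/-. Without wild-type male 1, the lowest library at 18.3 CPM, the value was 0.29 (adjusted p = 0.0604). Without Ccdc82-/- male 1, at 18.6 CPM, it was 0.29 on that background (adjusted p = 0.0851), and without Ccdc82-/- female 1 it was 0.31 (adjusted p = 0.0686). These 2 male libraries were the ones highest in choroid plexus markers in their groups. The part of choroid plexus RNA in the Pde1a levels was not tested.

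Markers of medium spiny neurons fell alongside Pde10a, Pde1b, Pde7b and Pde2a. All 15 of 15 shared markers were lower with Q140 on each background, where 16.5%, 16.7% and 15.7% of all genes were lower. The median log2 changes of these markers were -0.45, -0.44 and -0.47. Their summed level was 16829 to 18593 CPM in wild type libraries and 10841 to 13049 in Q140 libraries, with 0 of the 15 at 0. Of the 7 indirect pathway markers tested, 5 were lower against wild type, among them Penk (-1.03 ± 0.040, SE), which encodes enkephalin. Their sum was 2416 to 2736 CPM in wild type and 1261 to 1586 in Q140. Of the 8 direct pathway markers 3 were higher and 3 lower against wild type, beside 18.2% and 16.5% of all genes. Drd1 was at -0.57 ± 0.033 and Tac1, which encodes substance P, at 0.17 ± 0.036. The direct pathway sum was 911 to 982 CPM in wild type and 752 to 834 in Q140. Their part in the change of the phosphodiesterases was not tested. Adcy5, Gnal and Ppp1r1b of the shared list also stand in the lists of cyclic nucleotide synthesis and effectors.

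The other marker lists each had members that did not pass. Of all genes, 34.7% passed against wild type, 35.0% on Ccdc82+/- and 33.2% on Ccdc82-/-. Against wild type, 3 of 9 cortical excitatory neuron markers were higher and 3 lower, with sums of 128 to 142 CPM in wild type and 147 to 173 in Q140. Astrocyte markers summed to 4445 to 4848 CPM in wild type and 3938 to 4325 in Q140, with 1 of 10 higher and 4 lower. Of 9 microglia markers 3 were lower, of 9 endothelial and mural markers 6, of 9 oligodendrocyte markers 3 and of 11 striatal interneuron markers 2, with 0 higher in each. Of 6 oligodendrocyte precursor markers 2 were higher and 1 lower, of 5 thalamic or pallidal markers 1 was higher, of 8 choroid plexus markers 1 was higher (the highest Q140 library summed to 35.1 CPM), and of 4 ependymal and 5 blood markers 0 passed. On Ccdc82+/- and Ccdc82-/- respectively, 8 and 7 of the 9 microglia markers were lower, 8 and 6 of the 9 endothelial and mural markers, and 2 and 5 of the 9 oligodendrocyte markers. Of the 8 choroid plexus markers 3 were lower on Ccdc82-/-, whose control group holds the library at 340 CPM. The part of these cell types in the members' values was not tested.

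Of the 14 other genes with a phosphodiesterase symbol, 12 were tested against wild type. Pde11a (0.75 ± 0.184, SE) and Pde3b (0.15 ± 0.046) were higher, Pde8a (-0.19 ± 0.061) and Pde3a (-0.13 ± 0.045) were lower, and 8 did not pass. That share is near the 34.7% of all genes that passed. On Ccdc82+/- and on Ccdc82-/- Pde11a was higher and Pde8a lower, and 10 did not pass. Pde11a was low throughout, at 0.146 ± 0.0423 FPKM (SD, n = 8) in wild type. The median log2 change of the 12 genes was 0.06 against wild type, 0.02 on Ccdc82+/- and 0.004 on Ccdc82-/-.

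Adcy5 and Gnal, which drive cyclic AMP synthesis downstream of dopamine receptors, fell with Q140. Of 26 listed genes 23 were tested, and 7 were lower and 2 higher against wild type, with a median log2 change of -0.06. Among all genes 16.5% were lower and 18.2% higher there. Adcy5, the main adenylyl cyclase of striatum, was at -0.63 ± 0.034 (SE), Adcy9 at -0.24 ± 0.033 and Gnal, the G protein subunit that couples Drd1 to the cyclase, at -0.16 ± 0.027. Npr2, a natriuretic peptide receptor with guanylyl cyclase activity, was higher at 0.36 ± 0.043. On Ccdc82+/- and on Ccdc82-/- 6 were lower and 2 higher.

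Cyclic nucleotide effectors passed in both directions. Of 31 listed genes 27 were tested, and 8 were higher and 4 lower against wild type, with a median log2 change of 0.01. Of all genes, 18.2% were higher and 16.5% lower in that comparison. Ppp1r1b (DARPP-32), the protein kinase A target of medium spiny neurons, was lower at -0.60 ± 0.037 (SE), and Akap9, a kinase anchor, at -0.32 ± 0.055. Prkar1b, a regulatory subunit of protein kinase A, was higher at 0.29 ± 0.026 and the channel gene Hcn3 at 0.34 ± 0.052. On Ccdc82+/- 7 were higher and 6 lower, and on Ccdc82-/- 8 higher and 5 lower.

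Mutant Ccdc82 was not accompanied by a detectable change of any member. In each of the 4 comparisons of Ccdc82 genotypes, with and without Q140, edgeR called 0 of the 10 members, where 0.00521% of genes passed, that is Ccdc82 itself. At an unadjusted p under 0.05 the count was also 0 of 10 in each, beside 628 of 19193 genes for Ccdc82+/- and 804 for Ccdc82-/- against wild type, and 1101 and 712 within Q140. DESeq2 and limma voom with quality weights called 0 members. The smallest unadjusted p was 0.0639, for Pde1c in Ccdc82-/- against wild type (-0.13 ± 0.070, SE). For Pde10a the 95% intervals of the log2 change were -0.09 to 0.08 for Ccdc82+/- and -0.13 to 0.05 for Ccdc82-/- against wild type. Within Q140 they were -0.07 to 0.10 and -0.11 to 0.07. For Pde1b they were -0.01 to 0.11, -0.05 to 0.07, -0.09 to 0.03 and -0.08 to 0.04 in the same order. The Q140 change itself differed by -0.10 to 0.15 for Pde10a on Ccdc82+/- and by -0.11 to 0.15 on Ccdc82-/- (95% intervals of the interaction). Of 10 members 0 passed in either interaction, as did 0% of all genes, with 1011 and 826 genes at an unadjusted p under 0.05 and 0 members among them. The smallest member p-values were 0.0728, for Pde1c on Ccdc82-/-, and 0.0779, for Pde1b on Ccdc82+/- (-0.08 ± 0.043, SE).

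Between the sexes, 1 member passed. Pde8b was lower in males by edgeR's test (-0.06 ± 0.018, SE, adjusted p = 0.0365); the share of 1 in 10 members is near that of all genes, where 8.67% of genes passed, 4.64% lower and 4.03% higher (774 genes higher in males and 890 lower, against 1062 and 559 on FPKM). That call did not pass without the filter on low counts (adjusted p = 0.0629), with the plate column as a factor (adjusted p = 0.0510) or on FPKM with a pseudocount of 0.1 (limma adjusted p = 0.0660). Among the other phosphodiesterases, Pde9a was 0.20 ± 0.032 higher in males. The Q140 change averaged over the 3 backgrounds was -0.79 ± 0.038 (SE) in females and -0.82 ± 0.037 in males for Pde10a. It was -0.62 ± 0.026 and -0.60 ± 0.025 for Pde1b, and 0.28 ± 0.046 and 0.37 ± 0.045 for Pde4d. The difference between sexes passed for 0 of 10 members by edgeR, where 0% of 19714 genes passed and 621 had an unadjusted p under 0.05. The smallest member p was 0.170, for Pde4d.

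The genes most like each member were ranked by Pearson's r of log2 CPM over the 47 libraries, among 13937 genes. For Pde10a, Pde1b, Pde7b and Pde2a the libraries with and without Q140 lie apart, and r over all libraries reflects both sides. These values carry no test. Rgs9, a regulator of G protein signalling and a marker of medium spiny neurons, came first for Pde10a (r = 0.992), followed by Kcnab1 and Ppp4r4. For Pde1b the first were Ppp1r1b (0.992), Adcy5 and Drd1, and for Pde7b Atp2b1 (0.975), Pde10a and Itpr1. For Pde2a they were Rnf112 (0.967), Cyld and Bcr, for Pde8b Arrb1 (0.907), Plekhg4 and Dock4, and for Pde4a Bhlhe41 (0.870), Mcf2l and Socs7. For Pde4d they were Fam53c (0.881), Fam126a and Ctps, for Pde1a P2ry1 (0.794), Stxbp6 and Epha5, for Pde4b Creg2 (0.791), Pcsk2 and Chst15, and for Pde1c Tenm2 (0.761) and Cdh8. The lists depended on the measure. Ranked by Spearman's r, Cacna2d3 came first for Pde1b, Zcchc2 for Pde4d and Cdh8 for Pde1c. The first gene of the other members stayed the same. Adcy5 and Drd1 then left the list of Pde1b, and Pde10a left that of Pde7b.

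Once the mean of each genotype and sex was subtracted, Rgs9 (r = 0.84), Kcnab1 (0.83), Atp2b1 (0.83), Cacnb2 (0.78) and Gpr158 (0.78) were nearest to Pde10a over the 47 libraries. Among members, Pde10a then went with Pde7b (r = 0.72), Pde2a (0.60) and Pde1b (0.55), and against Pde1a (-0.43) and Pde4d (-0.35). Pde4b went with Pde1c (0.51) and against Pde4a (-0.60) and Pde4d (-0.53). The libraries share a scaling step and the mix of cells in each dissection, and the part of either in these correlations was not tested.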

How the data were processed

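Striatal mouse RNA was extracted with RNeasy columns and sequenced from 47 TruSeq stranded libraries, per the labels' protocols. The authors deposited a table of raw read counts per gene and a separate table of FPKM values, per the file headers. The submitters' processing notes name STAR 2.7.5c, SAMtools 1.10, HTSeq 0.12.3 and the GRCm38 (mm10) build; the counting settings and annotation release are not given in the sources used here. The FPKM equal the count divided by the library total and the gene length. Total counts were 41.3 to 61.7 M per library.

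Counts were tested with edgeR 4.0.16 (robust quasi-likelihood, TMM scaling, default filter on low counts, 19193 genes) in R 4.3.3, with genotype and sex terms over all 47 libraries and Benjamini-Hochberg adjustment over all genes tested. A model with a Q140 effect in each sex kept 19714 genes. CPM were computed from the counts. On simulated counts for Q140 against wild type (19039 genes), 100% of genes changed by 1 on the log2 scale and 86 to 88% of those changed by 0.3 were called, and 0.0478% of unchanged genes. In that simulation 50 genes were given each of the changes -1, -0.3, 0.3 and 1, and 18839 none. The changed genes were drawn from those whose mean CPM was at least 1 on the log2 scale, so the rates do not cover changes of lower genes. Many more genes were called in the data, so these rates need not hold there. Alternatives used DESeq2 1.42.0 size factors and tests, limma 3.58.1, FPKM, other terms and subsets. FPKM were tested by limma as log2(value + 0.1), which understates changes of low genes.

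Replicate numbers were not used to pair libraries, and the labels name no litter, day or batch. The library names carry a number that several libraries of the same sex share, often across genotypes. What this number stands for is not said, and a grouping of libraries by it was not tested. The members and gene lists were chosen with earlier results of these data known. Members were all named. Other phosphodiesterases were named where they passed against wild type, up to 4 genes per pathway list by smallest p, and for likeness the 3 highest correlations among genes whose mean log2 CPM reached 1 (1 of these genes is not reported here). Penk, Drd1 and Tac1 were named after their values were seen. Gene positions come from GENCODE M21 and promoter windows from RefSeq (GRCm38.p6). A planned search for a protein signature was not run, because no protein table was used here.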

Additional observations from a re-analysis of the deposited data

Results flagged for a closer look

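Of 60 sets of libraries checked (10 members in 6 groups), 3 held a library far from the others of its group, where chance alone gives about 1 in 20. All 3 were in Ccdc82-/-. Pde2a was at 89.1 CPM in Ccdc82-/- female 1, where the next library was at 82.8 CPM. Pde4d was at 36.0 CPM in the same library, where the next was at 43.9 CPM. Pde4b was at 197 CPM in Ccdc82-/- male 2, where the next was at 184 CPM. Pde2a and Pde4d kept their calls for Q140 on Ccdc82-/- without female 1.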

How the results depend on the processing

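Across 15 other settings, Pde10a, Pde1b, Pde7b and Pde2a passed in each of them on all 3 backgrounds. Of the 30 Q140 results of the 10 members, DESeq2, its size factors and the fit without a sex term kept the direction and the side of the threshold of all 30. The same held for 29 with limma voom, 28 without the filter on low counts, 28 with only the groups compared, 27 with the plate column, 24 on FPKM, 23 in females alone and 22 in males alone. The number of members higher against wild type was 1 in place of 2 with only the groups compared, in males alone and without wild-type male 1, where Pde1a did not pass; over the 3 libraries that were each left out once (wild-type male 1, Ccdc82-/- male 1 and Ccdc82-/- female 1) it ranged from 1 to 2. In males alone 5 members were lower in place of 8. On Ccdc82+/-, 0 members were higher in place of 1 in females alone. On Ccdc82-/-, 1 member was higher in place of 2 with voom, without the filter, with the plate column, in females alone, in males alone and without Ccdc82-/- male 1 or female 1 (range 1 to 2). The last 2 alternatives were chosen after seeing the data. The member lower in males was lost (0 in place of 1) without the filter, with the plate column and on FPKM with either pseudocount. The cause was not tested for any of these. On FPKM with a pseudocount of 0.1 and 1, values on Ccdc82-/- turned from negative to 0.0043 and 0.0029 for Pde1c and to 0.0036 and 0.0034 for Pde4b. As a percent of the control mean on FPKM, Pde8b was at 94.6% on Ccdc82+/- and 94.02% on Ccdc82-/-, and Pde4b at 97.5% and 100.3%. Of all genes, 2178 were higher and 2143 lower against wild type in females alone and 1932 and 1990 in males alone. On Ccdc82+/- the counts were 1524 and 1800 in females alone, and on Ccdc82-/- 1646 and 1806 in females alone and 1867 and 1916 in males alone; fewer libraries entered these fits. Between the sexes, voom gave 1401 genes higher in males and 1491 lower, and the fit without the filter 567 and 516.

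Libraries of other genotypes with the same sex and replicate number had a median correlation of -0.01 over 115 pairs (range -0.43 to 0.54). Others of the same sex were at -0.03 over 345 pairs (-0.47 to 0.48). Group and sex means were subtracted first, which lowers such correlations. The check therefore does not settle whether the numbers link libraries. With a replicate block, 3473 genes were higher and 3174 lower against wild type, and 1 member was higher on Ccdc82-/- in place of 2, since Pde1a was at 0.31 with an adjusted p of 0.0503. The 95% intervals are for single genes and carry no adjustment for the number of genes tested. Over all genes their median half-width was 0.11 to 0.12 on the log2 scale for comparisons between groups. For the interactions with Ccdc82 it was 0.16. Calls at an adjusted p under 0.05 are stricter than these intervals, most of all where few genes pass. A half-width is therefore not a limit of detection.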
